A study of Drosophila melanogaster with 2 samples.

Results

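Small nuclear RNA (snRNA) genes were taken as every gene of that biotype on the nuclear chromosomes of the Ensembl copy of the FlyBase annotation, on build dm6. There were 32 of them among 18164 annotated genes. They comprised 5 U1, 6 U2, 3 U4, 7 U5 and 3 U6 genes and 8 genes of minor and other types (U11, U12, U4atac, U6atac, U7, LU, 7SKa and 7SKb). For each gene, every peak summit within 1000 bp of the annotated start was collected from all 4 deposited peak lists. Symbols carry the prefix snRNA in the annotation and are given without it below.

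The peaks came from chromatin immunoprecipitation with sequencing (ChIP-seq) of fd3F, a forkhead transcription factor known for its role in the chordotonal sensory neurons of the fly, where it acts on genes of motile cilia. The material was whole Drosophila melanogaster embryos, 8 to 18 h old, of a transgenic line that stably expresses fd3F with GFP fused to its C terminus. An anti-GFP antibody was used on sonicated chromatin with a stated fragment range of 200 to 800 bp, and the labels number the 2 biological replicates 1 and 3. Both replicates belong to 1 group, so no treatment or genotype was compared, and whole embryos mix all tissues, so binding in chordotonal neurons alone was not measured. The 4 lists were those of replicate 1, of replicate 3, of both replicates pooled (30000 peaks each) and a reproducible list of 3917 peaks. The reproducible list held exactly the 3917 best peaks of the pooled list. Each peak's signal is the authors' value on the scale of its own list, where it ran from 115 to 3903 in the reproducible, 26.5 to 3903 in the pooled, 18.6 to 1762 in the replicate 1 and 14.1 to 2151 in the replicate 3 list. It is used here only to describe and rank peaks within a list, with rank 1 the highest.

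Spliceosomal snRNAs form, with Sm or Lsm proteins, the ribonucleoprotein particles that remove introns. U1 pairs with the 5′ splice site, U2 with the branch point, U4 holds U6 inactive until the spliceosome is activated, U5 contacts the exon ends and U6 belongs to the catalytic core. U11, U12, U4atac and U6atac take the matching places in the minor spliceosome, U7 acts in the 3′ end formation of histone mRNAs, and 7SK RNA restrains the elongation factor P-TEFb. In flies most of these genes are transcribed by RNA polymerase II and the U6, U6atac and 7SK genes by RNA polymerase III, from promoters that share a proximal sequence element (PSEA) bound by the SNAPc complex.

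The stretches from 80 bases before the start to the first 20 bases of the gene are shown for the genes with the highest pooled peaks, for U11, which had the best ranks in the single replicates, and for U1:21D and U6:96Aa, identical copies without a pooled summit. They were read from the RefSeq genome of Release 6 (dm6) on the gene's own strand, and capitals mark the PSEA core TTCCCA, or the form TTCTCA, where it began 70 to 40 bases before the start.
U1:95Ca, chr3R:23859611-23859710, minus strand: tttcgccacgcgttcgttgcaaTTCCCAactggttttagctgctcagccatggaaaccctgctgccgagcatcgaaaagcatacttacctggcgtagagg
U1:21D, chr2L:901635-901734, minus strand: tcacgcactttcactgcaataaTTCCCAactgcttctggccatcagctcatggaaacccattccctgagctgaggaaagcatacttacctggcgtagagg
U2:34ABb, chr2L:13215759-13215858, plus strand: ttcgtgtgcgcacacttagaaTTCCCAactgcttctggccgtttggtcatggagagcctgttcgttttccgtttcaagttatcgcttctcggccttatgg
U4:39B, chr2L:21215159-21215258, minus strand: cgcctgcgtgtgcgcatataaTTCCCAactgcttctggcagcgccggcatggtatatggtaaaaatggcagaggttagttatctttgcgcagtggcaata
U5:63BC, chr3L:3090721-3090820, plus strand: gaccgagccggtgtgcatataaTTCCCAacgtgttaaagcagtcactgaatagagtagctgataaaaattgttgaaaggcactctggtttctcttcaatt
U5:35D, chr2L:15751663-15751762, minus strand: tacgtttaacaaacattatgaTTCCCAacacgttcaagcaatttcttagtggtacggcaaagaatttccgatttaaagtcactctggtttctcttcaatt
U11, chr3L:3893311-3893410, minus strand: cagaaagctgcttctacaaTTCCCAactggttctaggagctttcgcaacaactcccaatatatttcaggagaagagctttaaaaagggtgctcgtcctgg
U6:96Aa, chr3R:24556008-24556107, plus strand: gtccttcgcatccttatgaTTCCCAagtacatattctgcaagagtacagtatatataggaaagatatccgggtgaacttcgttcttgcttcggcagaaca
U6:96Ab, chr3R:24556612-24556711, plus strand: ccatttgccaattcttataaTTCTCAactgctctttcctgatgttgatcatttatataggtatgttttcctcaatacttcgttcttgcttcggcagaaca
U6:96Ac, chr3R:24557135-24557234, plus strand: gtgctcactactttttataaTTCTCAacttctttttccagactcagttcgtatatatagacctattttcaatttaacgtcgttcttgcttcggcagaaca
7SKa, chr3R:7474977-7475076, minus strand: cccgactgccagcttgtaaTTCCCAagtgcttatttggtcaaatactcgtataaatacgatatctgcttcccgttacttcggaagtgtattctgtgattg
The core TTCCCA began at positions -61 to -55 from the start in 26 of the 32 genes (81.2%). Among 18163 promoters of all annotated genes, 213 (1.17%) held it in the same interval on the same strand. The other 6 genes (LU, U2:38ABb, U4:25F, 7SKb, U6:96Ab and U6:96Ac) held TTCTCA at positions -68 to -57, a form that was searched for after these sequences had been seen. It was in that interval in 0.870% of all promoters. Both U6 genes that lay beside a reproducible summit were thus among the carriers of TTCTCA, and U6:96Aa, whose start lay just too far from that summit, carried TTCCCA. The other carriers of TTCTCA had no reproducible summit within 1000 bp, and U1:95Ca, which had one, carried TTCCCA. A link between the form and the summits was not tested.

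The 61 bases centred on 6 of the 8 pooled summits with a q-value of at most 0.05 are shown next, since they show where in the transcription unit each summit lay. Capitals mark bases inside the annotated snRNA gene, and the middle base is the summit.
U1:95Ca, chr3R:23859565-23859625, minus strand: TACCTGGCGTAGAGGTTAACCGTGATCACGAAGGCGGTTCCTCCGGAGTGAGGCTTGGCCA
U2:34ABb, chr2L:13215987-13216047, plus strand: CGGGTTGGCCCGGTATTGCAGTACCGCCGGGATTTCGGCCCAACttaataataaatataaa
U4:39B, chr2L:21215076-21215136, minus strand: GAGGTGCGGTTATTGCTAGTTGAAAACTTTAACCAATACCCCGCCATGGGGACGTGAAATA
U5:63BC, chr3L:3090849-3090909, plus strand: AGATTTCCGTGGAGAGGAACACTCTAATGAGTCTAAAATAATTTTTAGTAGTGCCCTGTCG
7SKa, chr3R:7474627-7474687, minus strand: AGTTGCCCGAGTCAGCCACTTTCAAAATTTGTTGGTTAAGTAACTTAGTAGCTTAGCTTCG
U6:96Ac, chr3R:24557104-24557164, plus strand: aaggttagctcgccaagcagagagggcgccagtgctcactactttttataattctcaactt
At 5 of these 6 places the summit base itself was inside the gene, and at U6:96Ac it lay just before the stretch of promoter shown above. The summits not shown were that of U5:35D, at +425 and outside the gene, and the +135 summit of 7SKa, inside it. Over all 8 summits, 6 were inside an snRNA gene.

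In the reproducible list, 3 of the 32 snRNA genes had a summit within 1000 bp of the start (9.38%, exact 95% interval 1.98 to 25.0). Over all annotated genes the share was 16.5%, which lies within that interval. The 3 genes were U1:95Ca, U6:96Ab and U6:96Ac, and they rested on 2 summits, because the neighbouring U6 genes shared one. In the pooled list 15 genes had a summit (46.9%, interval 29.1 to 65.3, against 53.5% of all genes). With pooled peaks held to a deposited q-value of at most 0.05 there were 8 (25.0%, interval 11.5 to 43.4, against 31.5% of all genes). The replicate 1 list gave 15 (46.9%, against 54.9%) and the replicate 3 list 17 (53.1%, against 51.4%). The snRNA genes' shares thus stood near the background in every list. Among as many best peaks as the reproducible list holds, replicate 1 alone gave 5 genes (15.6%, against 16.1% of all genes), with 7SKa and U11 added, and replicate 3 alone gave 3 (9.38%, against 16.9%), the U6 pair and U11. These intervals cover counting error only, and genes that share a summit are not independent.

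**Figure D1:**
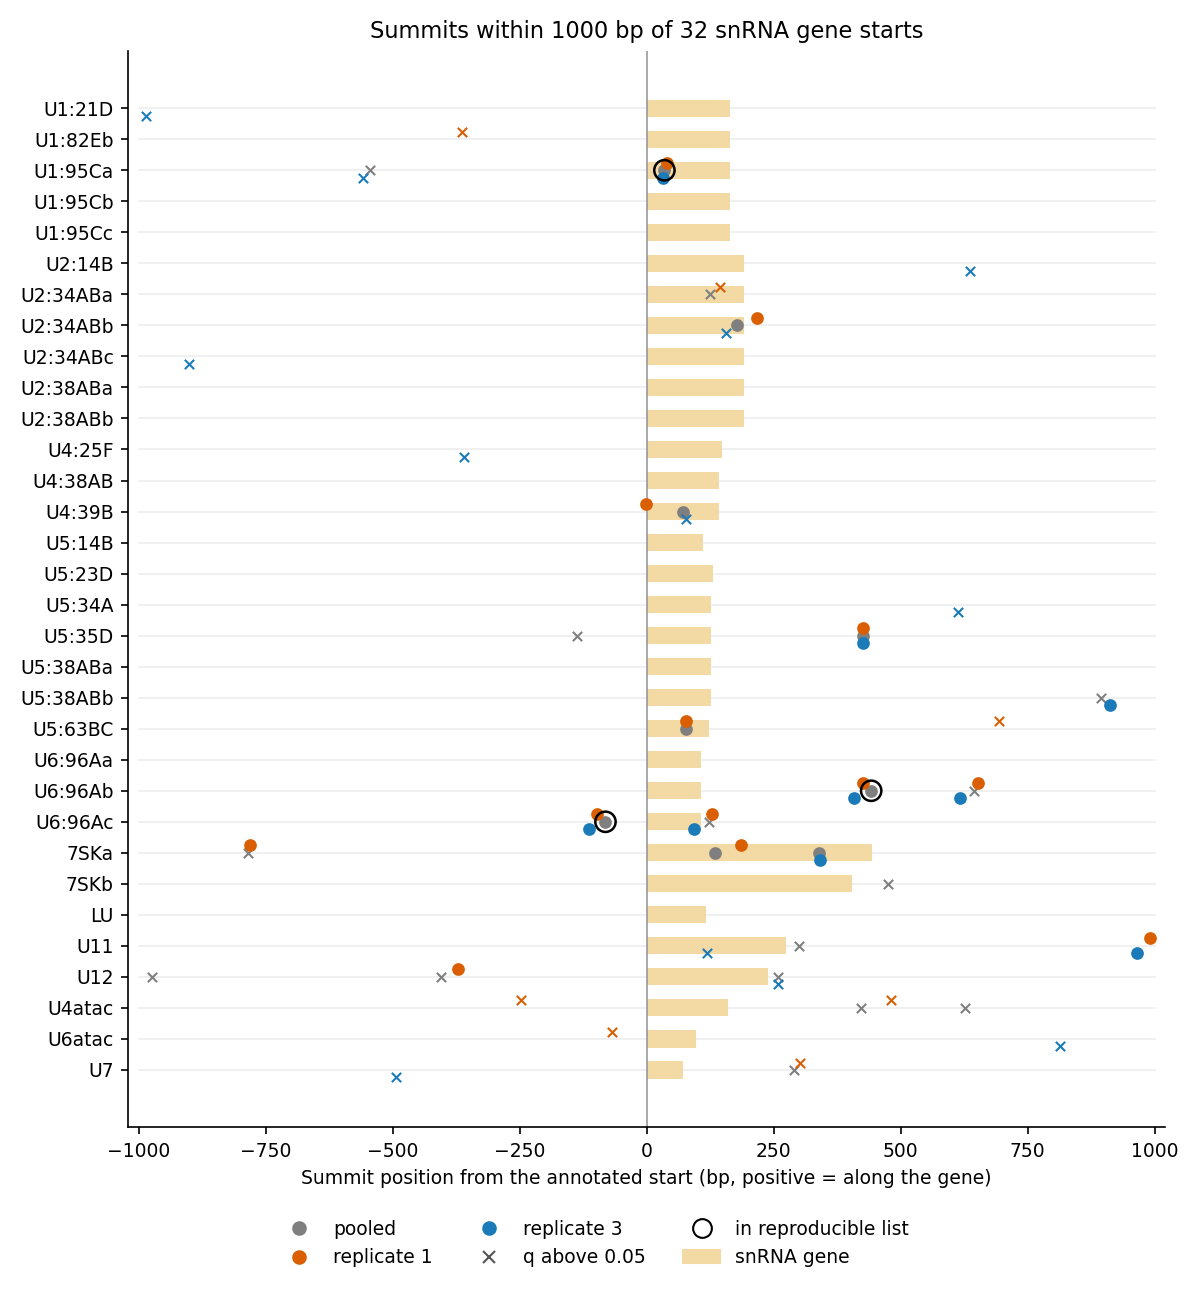
Position of each summit (bp from the annotated start, positive along the gene) at the 32 snRNA genes, 1 row per gene, with the gene drawn as a bar; colours mark the list, crosses a q-value above 0.05 and open rings the reproducible list. Rings stand at U1:95Ca, U6:96Ab and U6:96Ac, and 10 genes have no summit in any list, a count not made over all annotated genes.

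By type, a reproducible summit was found at 1 of 5 U1 genes and 2 of 3 U6 genes, and at none of the 6 U2, 3 U4, 7 U5 and 8 minor and other genes. With so few genes a type these counts leave wide exact 95% intervals: 0.505 to 71.6% for U1, 9.43 to 99.2% for U6, and up to 45.9% for U2, 70.8% for U4, 41.0% for U5 and 36.9% for the minor and other types. In the pooled list every type had at least 1 gene with a summit: 1 of 5 U1, 2 of 6 U2, 1 of 3 U4, 3 of 7 U5, 2 of 3 U6 and 6 of 8 minor and other genes. The share of the minor and other types was the highest (75.0%, exact 95% interval 34.9 to 96.8). The 53.5% of all annotated genes lies within that interval. Of these 6 genes only 7SKa had a pooled summit with a q-value of at most 0.05. They did not lead by rank: the median best rank was 21609 among these 6 genes and 2502 for the shared summit of the U6 pair. The types were not tested against each other.

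Among the U1 genes the signal was at U1:95Ca (FBgn0004185, chr3R:23859467-23859630, minus strand), which lies in no protein-coding gene. Its summit was at position +35 in the pooled and reproducible lists (signal 136, rank 3187), at +41 in replicate 1 (signal 85.8, rank 2559) and at +32 in replicate 3 (signal 46.6, rank 4821). All 4 summits therefore fell inside the 164 bp gene, within 9 bp of each other. The nearest other annotated start, that of Pli, a ubiquitin ligase gene of the Toll pathway, was 30422 bp away, so no other annotated start lay in the window. Among the 3917 best peaks of replicate 3 alone this peak was not included, and the count of U1 genes was then 0. A weaker summit upstream, at -545 in the pooled (rank 25081) and -559 in the replicate 3 list (rank 20054), had a q-value above 0.05.

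The other 4 U1 genes had little or nothing. U1:82Eb had 1 summit in replicate 1 (-364, rank 25467), U1:21D had 1 in replicate 3 (-985, rank 16474), and U1:95Cb and U1:95Cc had none in any list. The transcribed sequence of U1:95Ca, U1:95Cb and U1:21D is identical over 164 bases, while the 100 bases upstream of the start are 60.0 to 66.1% identical between these 3 genes. The reads behind a summit inside such a gene can match its copies: all 50-base words of U1:95Ca occur elsewhere in the genome, and none of the words in the 300 bases on either side do. How reads with several matches were placed is not known from the labels or file headers, and the part of repeated sequence in the U1:95Ca summit, or in the missing summits of its copies, was not tested.

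The U6 genes stand in a row on chromosome 3R, U6:96Aa inside an intron of Esyt2 and U6:96Ab and U6:96Ac in no protein-coding gene. The highest ranked snRNA summit of the pooled and reproducible lists lay between the last 2 of them, at -81 from U6:96Ac (FBgn0004190, chr3R:24557215-24557321, plus strand) and +442 from U6:96Ab (FBgn0004189), with a signal of 167 and rank 2502. In replicate 1 it was at -98 from U6:96Ac (signal 66.4, rank 3695), and in replicate 3 at -114 (signal 92.5, rank 2119). Within the 1000 bp window it was the only snRNA summit whose peak was among the 3917 best of each list, and it stayed upstream of U6:96Ac in all 4. A companion summit sat near the 3′ end of U6:96Ac, at +122 in the pooled list (signal 54.2, rank 10371), +129 in replicate 1 (rank 10627) and +94 in replicate 3 (rank 7089). U6:96Aa (FBgn0004188) had no summit within 1000 bp: the pooled summit was 1046 bp from its start, just outside the window. The 3 U6 genes are identical over their 107 bases, and their upstream 100 bases are 60.2 to 64.2% identical.

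Among U2 genes, U2:34ABb (FBgn0004192, chr2L:13215839-13216030, plus strand) had the highest pooled signal. The summit was at +178 in the pooled list (signal 82.8, rank 5831), +217 in replicate 1 (signal 52.3, rank 5324) and +157 in replicate 3 (signal 27.8, rank 9541), so it lay around the 3′ end of the 192 bp gene. In replicate 3 its q-value was above 0.05. The start of kek4, a gene of leucine-rich repeat transmembrane proteins, lay 489 bp away. U2:34ABa had a low pooled summit at +125 (rank 20938) and one in replicate 1 at +144 (rank 17328). U2:14B (+637, rank 29463) and U2:34ABc (-900, rank 25218) had summits only in replicate 3, and U2:38ABa and U2:38ABb had none. U2:34ABb and U2:34ABc are identical over 192 bases, and the 6 U2 genes are at least 98.4% identical.

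The U4 signal was at U4:39B (FBgn0003930, chr2L:21215036-21215178, minus strand), inside an intron of the autophagy gene Atg18b. The pooled summit was at +72 (signal 83.3, rank 5782), with -2 in replicate 1 (signal 53.0, rank 5220) and +78 in replicate 3 (signal 27.1, rank 9858). In replicate 3 its q-value was above 0.05. The nearest other start, CG8679, was 3366 bp away. U4:25F had a summit in replicate 3 alone (-359, rank 27275) and U4:38AB had none.

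For U5, the highest pooled signal belonged to U5:35D (FBgn0003936, chr2L:15751557-15751682, minus strand). The summit was at +425 in the pooled list (signal 111, rank 4076), +425 in replicate 1 (signal 62.9, rank 3995) and +426 in replicate 3 (signal 51.4, rank 4325). These positions agreed to 1 bp, but the nearest start was that of ND-B17, a gene of mitochondrial complex I, 179 bp downstream of the summit, so the peak lay upstream of a protein-coding gene as well as beyond the 3′ end of U5:35D. Its pooled signal was just below the lowest of the reproducible list, 115.

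U5:63BC (FBgn0003938, chr3L:3090801-3090923, plus strand) had no other start nearer than 4936 bp. Its summit was inside the gene, at +78 in the pooled list (signal 84.8, rank 5678) and +77 in replicate 1 (signal 54.3, rank 5019). Replicate 3 had no summit within 1000 bp of it, so of the single replicates only replicate 1 listed it. U5:38ABb showed the opposite, with a summit at +912 in replicate 3 (signal 49.8, rank 4460), at +895 in the pooled list (rank 12416) and none in replicate 1. U5:34A had a summit in replicate 3 alone (+613, rank 25218), the same peak as that counted for its neighbour U2:34ABc. U5:14B, U5:23D and U5:38ABa had none.

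Of the minor and other types, 7SKa (FBgn0065099, chr3R:7474553-7474996, minus strand) had the highest pooled signal. It is the longest snRNA gene, at 444 bp, and held pooled summits at +135 (signal 61.9, rank 8539) and +339 (signal 98.3, rank 4733). Replicate 1 had its summit at +186 (signal 73.8, rank 3169) and replicate 3 at +342 (signal 46.0, rank 4895). The replicate summits were 156 bp apart, so both lists marked the gene but not the same place in it. A far stronger peak stood just outside the window, at +1045, with a pooled signal of 1039 (rank 92). Its nearest start was CG1142, 170 bp downstream. The part of this neighbour in the 7SKa summits was not tested. 7SKb had a pooled summit at +476 (rank 21343) and none in either replicate, and LU had none within the window.

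U11 (FBgn0083987, chr3L:3893056-3893330, minus strand), inside Fie on the opposite strand, was the snRNA gene with the best ranks in both single replicates: +990 in replicate 1 (signal 116, rank 1648) and +965 in replicate 3 (signal 97.5, rank 1979). In the pooled and reproducible lists the same peak was at +1007 (signal 220, rank 1673) and so fell just outside the window. The start of Fie lay 251 bp downstream of that pooled summit, and the nearest annotated start was Fie's in every list. Within the window the pooled list held for U11 only a summit at +300 (rank 21875).

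The remaining minor types had low ranks. U12 had pooled summits at -404 (signal 50.2, rank 11679), -974 and +258, with -371 in replicate 1 (rank 11165) and +259 in replicate 3 (rank 10787), so each replicate matched a different pooled summit. U4atac had pooled summits at +627 (signal 31.4, rank 23784) and +422, 2 in replicate 1 and none in replicate 3. U7 had a pooled summit at +291 (signal 29.5, rank 26076), with +302 in replicate 1 (rank 27566) and -493 in replicate 3 (rank 16354). U6atac had none in the pooled list, 1 in replicate 1 (-69, rank 28576) and 1 in replicate 3 (+813, rank 17458). For these genes the replicates did not place a summit in the same 100 bp.

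Across the 32 genes, 11 had a summit in both replicate lists (34.4%, against 40.2% of all genes), 4 in replicate 1 alone (12.5%, against 14.7%), 6 in replicate 3 alone (18.8%, against 11.3%) and 11 in neither (34.4%, against 33.8%). Of the 11 with both, 7 had summits of the replicates within 100 bp of each other (21.9% of the 32, against 29.3% of all genes): U1:95Ca (9 bp), U5:35D (1 bp), U6:96Ab and U6:96Ac (16 bp), U11 (25 bp), U2:34ABb (60 bp) and U4:39B (80 bp). These shares stood near those of all genes. Over the 11 genes the best ranks of the replicates had a Spearman rho of 0.854. This value is a description over points that share libraries and, for the U6 pair, a summit. No summit in any list was found at 10 genes: 2 of 5 U1, 2 of 6 U2, 1 of 3 U4, 3 of 7 U5, 1 of 3 U6 and 1 of 8 minor and other genes. For the 4 lists together the share over all genes was not counted. The closest value is the 33.8% with a summit in neither replicate list, so these counts are not read as a trait of snRNA genes.

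**Figure D2:**
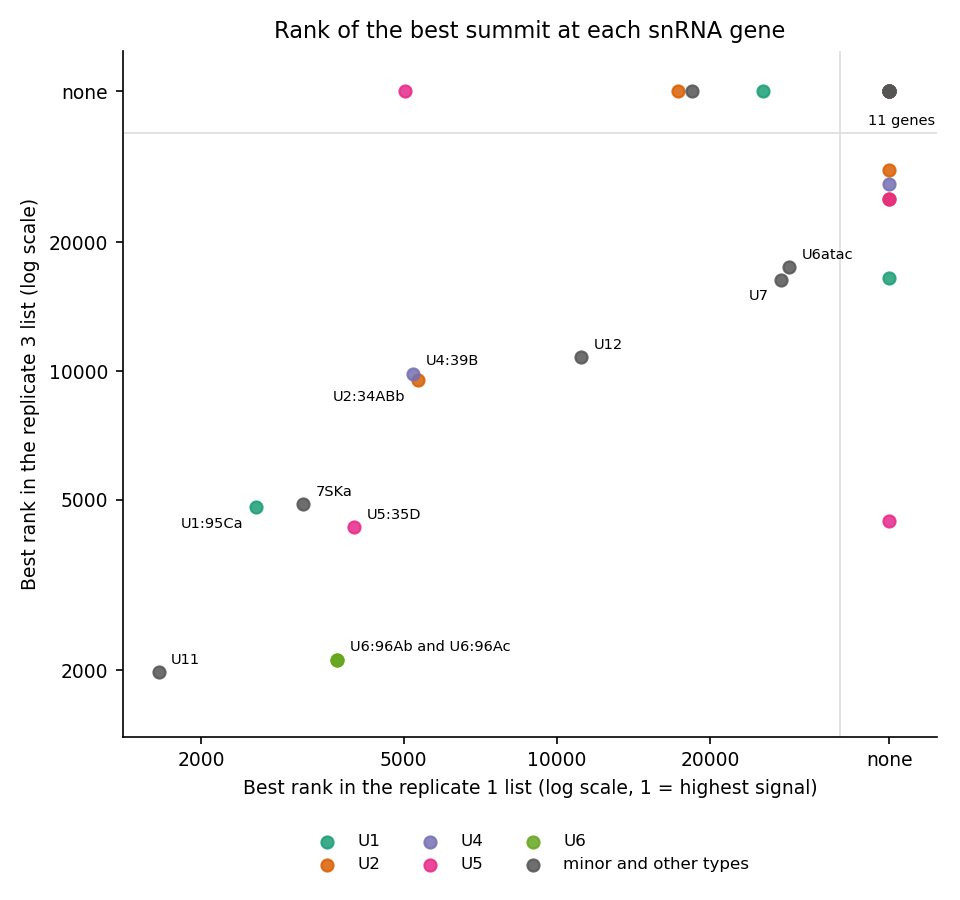
Best rank of each snRNA gene in the replicate 1 list (x axis) and the replicate 3 list (y axis), both on log scales with rank 1 the highest signal, coloured by type; genes with no summit within 1000 bp stand at "none". U11 has the best rank in both replicates, the U6 pair shares 1 point, and 11 genes have no summit in either.

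Where the summits lay differed in value between classes of genes. Of the 15 snRNA genes with a pooled summit, 13.3% (U12 and U6:96Ac) had their best summit upstream of the start. Over all annotated genes with one the figure was 65.6%, and it was 51.3% for tRNA and 71.1% for snoRNA genes. The snRNA share was higher in single replicates, 33.3% in replicate 1 and 29.4% in replicate 3, against 62.6 and 67.3% of all genes, so its size depended on the list. In the pooled list the summit of the U6 pair counted as upstream of U6:96Ac and downstream of U6:96Ab. The best summit of U5:35D was nearest to ND-B17, and only 8 of the 15 genes had a pooled summit with a q-value of at most 0.05. The best summit of the snRNA genes had a median position of +291, against -124 over all genes, -51.0 for tRNA and -438 for snoRNA genes. It was +144 in replicate 1, +259 in replicate 3 and +35.0 over the 3 genes of the reproducible list. Taking the summit nearest to each start, the median for snRNA genes was +178. It was +77 with the replicate 1 list, from which replicate 3 is left out.

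Summits inside the short transcribed unit itself gave a further contrast. With pooled peaks at a q-value of at most 0.05, a summit within 1000 bp of the start lay inside the gene for 5 of 32 snRNA genes (15.6%): U1:95Ca, U2:34ABb, U4:39B, U5:63BC and 7SKa. The share was 8.89% of all genes, most of which are longer. It was 0% of 290 tRNA genes, 0.372% of 269 snoRNA genes and 1.36% of 2350 other genes no longer than the longest snRNA gene. In the whole pooled list the shares were 18.8% for snRNA genes, 24.4% for all genes, 3.10% for tRNA, 3.72% for snoRNA and 5.02% for the other short genes. In the replicate 1 list they were 12.5, 28.1, 3.45, 5.58 and 5.91% in the same order, and in the replicate 3 list 18.8, 20.2, 1.38, 3.35 and 4.64%. The snRNA genes were thus above the other short classes in these lists and below the share over all genes, except in the pooled list at the q-value limit. The comparison with short genes was chosen after the positions had been seen, and was not tested. Gene length was not matched between these classes, and a longer gene has more room for a summit inside it. The 5 snRNA genes named above were 123 to 444 bp long. The reproducible list held 1 snRNA gene with a summit inside it (3.12%, against 3.33% of all genes and 0.511% of the other short genes). As many best peaks of replicate 1 alone gave 2 such genes (6.25%, against 0.596% of the other short genes) and those of replicate 3 alone gave 0, against 0.596%, so this count rested on replicate 1.

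**Figure D3:**
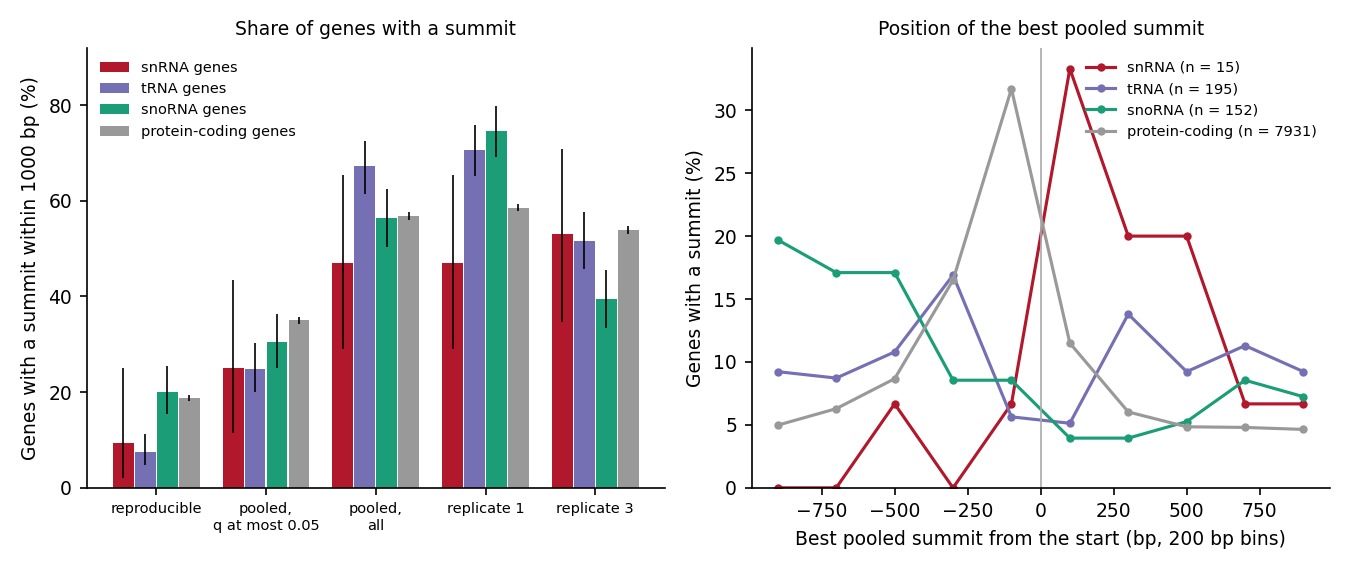
Left, percent of genes with a summit within 1000 bp of the start in each list, by class (bars from 0, error bars exact 95% binomial intervals); right, percent of the genes with a pooled summit whose best summit fell in each 200 bp bin. The snRNA shares overlap the protein-coding shares within their intervals, and 33.3% of the 15 snRNA genes have their best summit in the first 200 bp downstream of the start.

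The genomic surroundings of the genes were set beside the counts. Of the 32 genes, 16 lie in introns of protein-coding genes and 16 in none. Pooled peaks with a q-value of at most 0.05 stood at 1 of the 16 intronic genes (6.25%, U4:39B), against 17.6% of all 2344 annotated genes in such introns. They stood at 7 of the 16 others (43.8%), against 29.3% of all 10355 genes in no other protein-coding gene. Intronic genes thus had the lower share among snRNA genes and over all genes. For reproducible summits the counts were 0 of 16 (against 7.51%) and 3 of 16 (18.8%, against 14.9%), and in the whole pooled list 7 (43.8%, against 40.6%) and 8 of 16 (against 50.7%). Another annotated start lay within 1000 bp of 20 of the genes, and for 11 of these the nearest was another snRNA gene. Among the 32, 14 of the 15 genes with a pooled summit had one that was nearer to an snRNA start than to any other annotated start. Summits were collected around snRNA starts, which favours this, and the like share over all genes was not counted. U5:35D was included only through a summit at -137 (rank 29035, q-value above 0.05), as its best summit was nearest to ND-B17. For U6:96Ab the nearest start was that of U6:96Ac. The median distance from an snRNA start to the nearest reproducible summit was 9131 bp, close to the 8998 bp of all genes, while it was 2463 bp for snoRNA genes.

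Repeated sequence also varied between the types. All 50-base words of the gene occur elsewhere in the genome for 9 snRNA genes, some do for 14 and none for 9. With pooled peaks at a q-value of at most 0.05, a summit was found at 4 of the 9 wholly repeated genes (44.4%). It was found at 3 of the 14 partly repeated genes (21.4%) and at 1 of the 9 without repeated words (11.1%), which was 7SKa. The share over all annotated genes was 31.5%. In the whole pooled list the order differed, with 4 of 9 (44.4%), 5 of 14 (35.7%) and 6 of 9 (66.7%), against 53.5% of all genes. All 3 genes with a reproducible summit were wholly repeated, which describes the genes and not the places of their summits. Only the U1 summit lay inside its gene. The summit shared by the U6 pair lay between these genes, within the 300 bases upstream of the nearer start. None of the 50-base words in those 300 bases occur elsewhere in the genome. The part of repeated sequence in these counts was not tested, since neither the labels nor the file headers state the read length or how reads with several matches were handled.

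**Figure D4:**
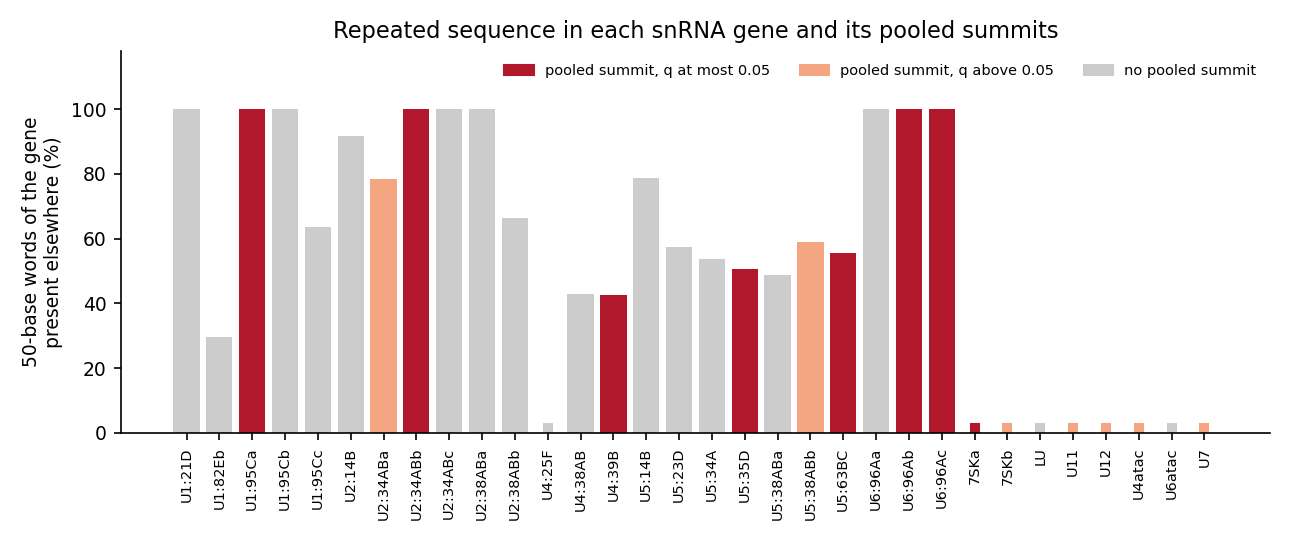
Percent of the 50-base words of each snRNA gene that occur elsewhere in the genome (bars from 0; small squares mark 0%), coloured by whether the gene has a pooled summit within 1000 bp and its q-value. Genes at 100% include U1:95Ca and the U6 pair, which have summits, and U1:21D, U1:95Cb and U6:96Aa, which have no pooled summit.

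Other motifs were searched on both strands of the 300 bases around each start, from 250 before to 50 after it. Anywhere in this window TTCCCA was found at 28 of 32 snRNA genes (87.5%, against 16.3% of all promoters) and the longer form AATTCCCA, which contains it, at 23 (71.9%, against 1.79%). The TATA box word TATAAA was anywhere in the window, on either strand, at 15 (46.9%, against 43.9%). This counts the word and not TATA boxes at their usual place. It stood at -31 in 7SKa and -30 in U6atac on the gene's strand, and at -30 in U6:96Ab on the opposite strand. In the other genes with the word it stood between -242 and -66. Other forms of the TATA box were not searched. The forkhead core TAAACA, a word common in the binding sites of forkhead factors, was at 7 (21.9%, against 31.7%), and the longer forkhead word TGTTTAC, which overlaps it on the other strand, was at U1:95Ca alone (3.12%, against 8.53%). The DRE word TATCGATA (7.52% of all promoters) and the M1BP word GGTCACAC (6.12%) were in none of these snRNA windows. Within 100 bp of the summits with a q-value of at most 0.05, TAAACA was at U2:34ABb and U5:35D. At the summits of U4:39B, U5:63BC and the +339 summit of 7SKa none of these words was found. How often such words occur in windows of this size around other summits was not counted. A match or its lack is a description of these letters in these windows.

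Genes for the proteins that make and use snRNAs were listed beside the snRNA genes themselves. The lists were chosen with earlier results of these data known, and a gene counted when any of its starts had a summit within 1000 bp. Whether the start of another gene lay nearer to such a summit was not examined for these lists. A reproducible summit was at 24 of 79 genes (30.4%), where 20.8% of all protein-coding genes had one, and a pooled summit at 59 (74.7%, against 58.4%). The median best rank among those with a reproducible summit was 1606, and 1580 over all protein-coding genes with one. No test was made of these lists, and the snRNA genes and their protein partners use different start rules, so their shares are given side by side only.

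The highest ranks belonged to the initiation factors of RNA polymerase III. Bdp1 had a summit at -61 (reproducible signal 777, rank 176; rank 262 in replicate 1 and 115 in replicate 3) and Brf at -176 (signal 736, rank 204; ranks 309 and 137), both subunits of TFIIIB. Of the 7 general initiation factors 5 had a reproducible summit, the others being TfIIA-L (signal 314), TfIIB (235) and TfIIA-S (169). Tbp and Trf had none.

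The Integrator complex, which cleaves the 3′ ends of snRNAs made by RNA polymerase II, had a reproducible summit at 7 of 14 genes. These included IntS11, the cleaving endonuclease (signal 489), IntS6 (460), IntS10 (229), IntS9, the partner of IntS11 (224), defl, the IntS7 subunit (194), and IntS4 (189). Of the 4 genes of the little elongation complex none did, and 2 had a pooled summit. Of the 3 genes of the PSEA-binding complex only Pbp95 had a reproducible summit (signal 155, at -510 from a start), named here after its value was seen.

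Among protein partners of the finished particles, U2 proteins had a reproducible summit at 4 of 11 genes. The highest was at U2af50, the large subunit that recognises the 3′ splice site region (signal 609, rank 283), and lay at -729 from a start. Sf3b6 (310) and Sf3a2 (202) followed. The U1 list had 1 of 3, snRNP-U1-C (371), and the U4/U6 and U5 list 2 of 8, Prp31 (300) and hoip (177). The hoip summit lay at +911 from a start. Only 1 of 13 Sm and Lsm genes had one, LSm1 (197), which acts in mRNA decay, although 10 of the 13 had a pooled summit. In the assembly and export list 3 of 15 genes had one, with Cbp20 of the cap-binding complex (307) and Smn, the assembly factor (157), the highest. La had a pooled summit (signal 113) and no reproducible one.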

How the data were processed

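ChIP-seq peak lists of 2 biological replicates were used as deposited. They are narrowPeak lists on build dm6, per the labels. For the peak caller, the aligner, the read length and the threshold of the reproducible list, the sources used here give nothing. The signal of each peak is the authors' deposited value and belongs to the scale of its own list. The deposited −log10 q-value was used only to hold peaks to q at most 0.05. The summit offset deposited with each peak was added to its start to place the summit. The lists carry no read counts, so sequencing depth is unknown, and it limits low peaks most.

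Gene starts came from Ensembl release 115 (BDGP6.54, dm6 coordinates), on arms that hold peaks and without transposable elements. RefSeq gave the same start and end for all 32 snRNA genes. Summits were matched to starts with Python 3.11.15, numpy 2.4.6 and pandas 2.3.3, after a check on simulated summits. Exact (Clopper-Pearson) 95% intervals came from scipy 1.17.1 and cover counting error only. Sequences were read from the RefSeq Release 6 genome.

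The members and gene lists were chosen with earlier results of these data known. Genes were described in full where a reproducible summit lay in the window or where they had the highest pooled signal of their type, with each minor type counted apart. U5:63BC was described in full after its values were seen. By reproducible signal, 20 listed protein genes were named. Of 95 listed names 10 had no match and were left out, and the rest gave 79 genes. Alternatives were each replicate alone, other peak thresholds, windows of 500 and 2000 bp, and other overlap rules. No test was made, since there is 1 group.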

Additional observations from a re-analysis of the deposited data

How the results depend on the processing

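The count of 3 snRNA genes with a reproducible summit held with a 500 bp window, with summits nearest to an snRNA start and with RefSeq genes. It was 3 to 5 with the best peaks of a single replicate, 0 with the upper 1958 peaks by signal, 8 with pooled peaks at q at most 0.05 and 15 with all pooled peaks. It was 6 with a 2000 bp window, 6 where the peak interval overlapped the window and 1 where it overlapped the gene. The genes added at 2000 bp were 7SKa, U11 and U6:96Aa, through summits nearest to the starts of CG1142, Fie and U6:96Ac. The shares over all annotated genes were not counted for the 2000 bp window, the overlap rules or the upper 1958 peaks. The pooled count of 15 fell to 8 at q at most 0.05. By type, U1 had 0 to 1 in single replicates and 0 with the upper 1958 peaks, U6 0 with them, and with all pooled peaks U2 had 2, U4 1 and U5 3. Minor and other types had 1 to 2 in single replicates, 6 with all pooled peaks and 2 at 2000 bp. The median position of the nearest summit was 77 to 157 bp in single replicates. The listed protein genes numbered 14 with the upper 1958 peaks and 59 with all pooled peaks. Stricter and looser lists hold fewer and more peaks by construction; the cause of the other shifts was not tested. Depth is unknown, so a gene without a summit may lack one only at this depth.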
